A study of Mus musculus with 58 samples.

Results

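The 4 libraries described here were those of control mouse embryonic stem (mES) cells on day 2 and on day 4 of retinoic acid (RA), 2 libraries a day, out of 58 in the series. They were chosen by their labels, and the change from day 2 to day 4 was measured gene by gene. The cells were E14 mES cells of a 129/Ola background in which both copies of Dpy30, a core subunit of the COMPASS complexes that methylate histone H3 lysine 4, carry a mini auxin-inducible degron (mAID), with a transgene for the plant F-box protein OsTIR1. They received the vehicle DMSO in place of auxin, and 1 µM all-trans RA without leukaemia inhibitory factor, in medium renewed every 24 h. The tag, OsTIR1, RA and the loss of the inhibitory factor were therefore shared by both days. The days differ by 2 further days of RA and of culture, which cannot be told apart without untreated cells of the same days. RNA was counted by Quant-seq, which reads the 3′ ends of polyadenylated transcripts, so that a value follows the number of transcripts and not their length.

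RA is a vitamin A derivative that binds nuclear receptors of the RAR and RXR families at their target genes, among them the Hox clusters and the genes of RA turnover. In ES cells it drives exit from pluripotency, and in adherent culture it is known to give neural and extraembryonic endoderm fates. Primitive endoderm is the lineage of the blastocyst that lines the yolk sac. It takes up nutrients through endocytic receptors and lysosomes, and it lays down a basement membrane of laminins and type IV collagen. The integrated stress response is the program in which the factor ATF4 turns on genes of amino acid supply when cells lack amino acids or carry unfolded proteins.

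Counted reads per library ranged from 1941617 to 2219362, and values are given as CPM, reads scaled to a common library size with TMM factors. Of 20177 genes in the files, 11415 averaged 10 reads or more in 1 or more of the 11 RA groups and were tested. A gene was called at an adjusted p below 0.05 in edgeR's quasi-likelihood test and a log2 fold change beyond 1 in size. The filter keeps genes that are high in any group, so each count of list members below covers tested members and not the whole list. No source used here says that the 2 libraries of a day came from separate cultures. The p-values therefore measure the spread between libraries, shared over the 11 RA groups of the fit, and may not cover that between cultures. In bulk RNA, fewer cells of a type and less RNA per cell cannot be told apart.

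From day 2 to day 4, 889 genes (7.79% of those tested) were called higher and 537 (4.70%) lower. Under DESeq2 in place of edgeR, 554 were higher and 425 lower. The median log2 fold change was 0.06 over all tested genes, 1.49 over the genes called higher and −1.43 over those called lower. Of the calls, 219 exceeded a log2 fold change of 2 upward and 137 downward. The genes that gained the most CPM were Sparc, Col4a1, Ctsl, Dab2, Peg3 and Cst3, and those that lost the most were Eif1, Wdcp, Cdkn1c, Ywhaq, Hint1 and Trip4. Wdcp, Trip4, Eif1 and Ywhaq drew 99.7%, 93.0%, 55.3% and 56.1% of their reads from sequence that maps to more than 1 place, so their levels are uncertain. The log2 fold change of Ywhaq was −0.99 without DMSO day 2 replicate 2, short of the cutoff. Multimapped reads made up 30.1% and 30.6% of the day 2 libraries and 27.2% and 27.0% of the day 4 libraries. Genes with over 50% of their reads multimapped were 2.25% of those called higher, 15.5% of those called lower and 7.35% of those tested. The part of multimapped reads in those calls was not tested beyond leaving such genes out, which gave 772 genes higher and 536 lower. All 772 and 454 of the 536 were among the calls made with every gene in the fit, and the median log2 fold change of the tested genes was then 0.03.

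**Figure D1:**
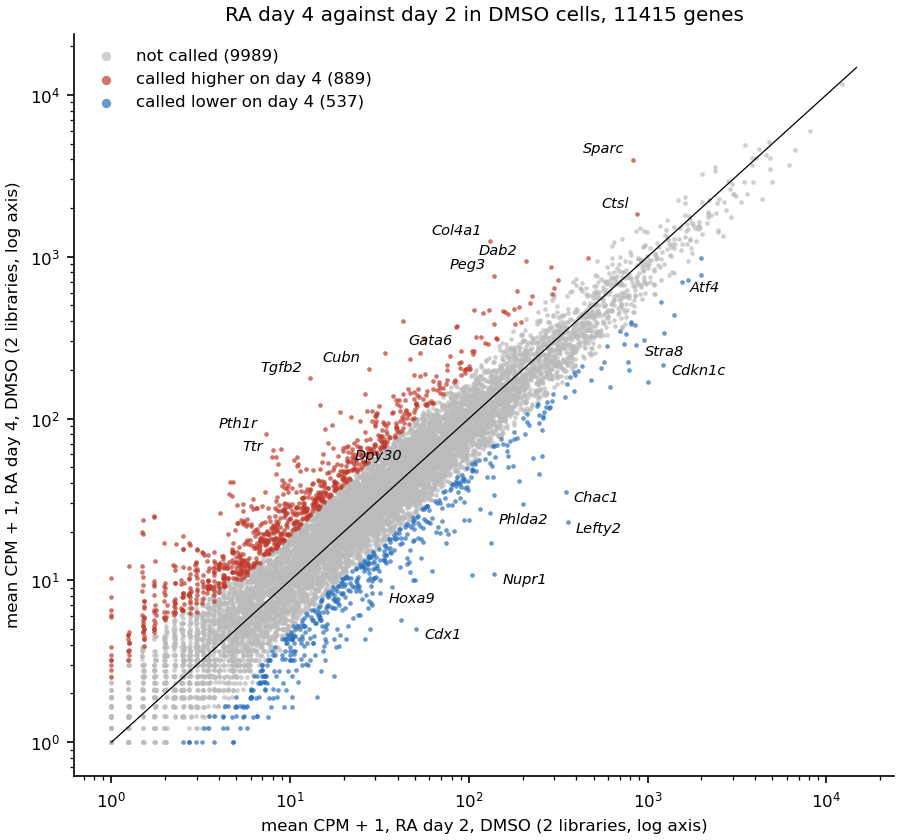
Mean CPM plus 1 of each of the 11415 tested genes on RA day 2 (horizontal, log axis) and RA day 4 (vertical, log axis) in DMSO cells, with equal levels on the diagonal. Red points are the 889 genes called higher on day 4, with Col4a1 and Tgfb2 far above the diagonal, and blue points are the 537 called lower, with Lefty2, Chac1 and Cdx1 far below it.

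The label of the samples is mES cell, and its markers were still present. All 12 markers of naive ES cells had a read in at least 1 of the 4 libraries, but Dppa3 had none on day 4. Their summed level was 1980 and 2080 CPM on day 2 and 2400 and 2380 CPM on day 4, against 5400 and 5260 CPM at 0 h. The 12 primitive endoderm markers summed to 433 and 445 CPM on day 2 and to 1770 and 1800 CPM on day 4, against 15.0 and 15.3 CPM at 0 h. The 11 neural progenitor markers summed to 55.0 and 53.9 CPM on day 2 and to 62.0 and 82.1 CPM on day 4, and Hes5, Neurog1 and Pax3 had no read in these libraries. The 5 trophectoderm markers summed to 34.3 and 30.3 CPM and then to 135 and 139 CPM, with Tpbpa at 0. Of these, 3 were tested and all 3 were called higher, against 7.79% of all tested genes. Endothelial markers summed to 3.64 and 4.81 CPM and then to 11.3 and 12.3 CPM, and the blood and muscle markers stayed at or below 1.75 CPM in the day 2 and day 4 libraries. Dpy30 itself stood at 44.1 and 48.1 CPM on day 2 and at 49.8 and 49.0 CPM on day 4 (log2 fold change 0.10 ± 0.17 SE, adjusted p = 0.694).

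Genes of the primitive endoderm rose together. Of 24 tested members of that list, 18 (75.0%) were called higher, against 7.79% of all tested genes, and none was called lower, with a median log2 fold change of 1.66. The one tested member with a lower mean on day 4 was Rbp4. Of the transcription factors that specify this lineage, Gata6 read 99.7 and 77.9 CPM on day 2 and 258 and 264 CPM on day 4, a log2 fold change of 1.56 ± 0.17 (SE, adjusted p = 7.78e-08). Sox17 went from 19.2 and 24.0 CPM to 73.8 and 66.2 CPM, and Gata4, which acts with Gata6, rose by a log2 fold change of 1.90 ± 0.27 to 51.5 and 53.5 CPM. Both day 4 libraries lay above both day 2 libraries for each of the 3 genes, and the libraries of the 2 days did not overlap for any of the 1426 called genes. Foxa2, a pioneer factor of endoderm, rose from 36.4 and 47.1 CPM to 137 and 146 CPM, and Foxq1 from 166 and 142 CPM to 442 and 475 CPM. Gata6, Foxa2, Sox17 and Foxq1 were all below 4 CPM on average at 0 h. Hnf4a, a factor of later visceral endoderm, remained low at 4.15 and 2.89 CPM on day 2 and 4.37 and 6.81 CPM on day 4 and was not called.

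Lists of some other cell types also held many genes called higher. One was that of gut and definitive endoderm, which shares Sox17 and Foxa2 with the primitive endoderm list. Of its 10 tested genes, 7 (70.0%) were called higher and 1 (10.0%) lower (median 1.72), against 7.79% and 4.70% of all tested genes. Of 14 tested mesoderm genes, 8 (57.1%) were called higher and 1 (7.14%) lower, against 7.79% and 4.70% of all tested genes, with a median log2 fold change of 1.72, and none of the 8 passed 30.4 CPM in a day 4 library. The summed level of the list overlapped between the days, at 309.0 and 291.5 CPM and then 335.3 and 302.6 CPM. The 6 mesoderm markers summed to 22.3 and 25.5 CPM and then to 28.8 and 33.1 CPM. Only 1 of these markers was tested, and it was not called. Meox1, a homeobox gene of somites, rose from 3.12 and 6.25 CPM by a log2 fold change of 2.11 ± 0.38. Of 6 tested glial genes, 3 (50.0%) were called higher and none lower (median 1.00), and 1 of the 3, Pdgfra, is also on the primitive endoderm list. Mbp, a myelin protein gene, went from 8.31 and 7.70 CPM to 31.0 and 43.6 CPM. The part of these cell types in the changes of other genes was not tested.

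Among the effector genes of endoderm, Dab2, an adaptor for endocytosis of lipoprotein receptors, read 203 and 211 CPM on day 2 and 932 and 938 CPM on day 4. Its log2 fold change of 2.18 ± 0.11 (SE, adjusted p = 2.51e-14) left both day 4 libraries far above those of day 2. Cubn, the receptor that takes up vitamin B12 with its carrier, went from 24.4 and 28.9 CPM to 196 and 208 CPM, although 53.3% of its reads were multimapped. Its partner receptor Lrp2 read 65.0 and 56.7 CPM on day 4, and its log2 fold change of 1.07 fell below 1 without DMSO day 2 replicate 2 (0.87) or DMSO day 4 replicate 1 (0.96). The serum carrier gene Ttr had no read at 0 h or on day 1, stood at 4.15 and 9.62 CPM on day 2 and reached 55.0 and 58.5 CPM on day 4. Srgn, a secretory granule proteoglycan gene, rose from 61.8 and 49.1 CPM to 329 and 294 CPM. Apoe, which carries lipid in lipoproteins, followed another course. It had been at 794 and 784 CPM at 0 h, read 139 and 178 CPM on day 2 and came back only to 477 and 429.7 CPM on day 4.

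Of 32 tested genes of the basement membrane and its matrix, 15 (46.9%) were called higher, against 7.79% of all tested genes, and none was called lower. The median log2 fold change was 1.33, and 6 of the 32 had a value below 0. Col4a1 and Col4a2 encode the chains of the main type IV collagen and lie head to head on chromosome 8 (GRCm38, 11198423 to 11312826 on the minus strand and 11312805 to 11449287 on the plus strand). Col4a1 stood at 138 and 123 CPM on day 2 and at 1241 and 1253 CPM on day 4, a log2 fold change of 3.26 ± 0.12 (SE, adjusted p = 1.63e-16). Col4a2 stood at 45.2 and 39.0 CPM and then at 379 and 421 CPM, a log2 fold change of 3.25 ± 0.16. The pair thus changed by almost the same factor, and neither had passed 20 CPM on day 1. Sparc, a collagen-binding glycoprotein gene of parietal endoderm, had the largest gain in CPM of all called genes, from 776 and 879 CPM to 3930.1 and 4025 CPM.

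Of the laminin chains, which form the network beside collagen IV, Lama1 rose from 48.8 and 55.8 CPM to 243 and 263 CPM, Lamb1 from 116 and 122 CPM to 449.6 and 446 CPM, and Lamc1 from 112 and 94.3 CPM to 286 and 237 CPM. These 3 chains form 1 trimer, the laminin of early embryonic basement membranes. The linkers between the networks rose too. Nid1, for nidogen, went from 14.5 and 13.9 CPM to 58.5 and 60.8 CPM, and Hspg2, for perlecan, from 54.0 and 57.7 CPM to 187 and 189 CPM. Serpinh1, the chaperone of procollagen, had a log2 fold change of 0.88 ± 0.11, below the cutoff. Fn1 for fibronectin (0.45 ± 0.12) and Col18a1 (−0.24 ± 0.11) were not called.

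**Figure D2:**
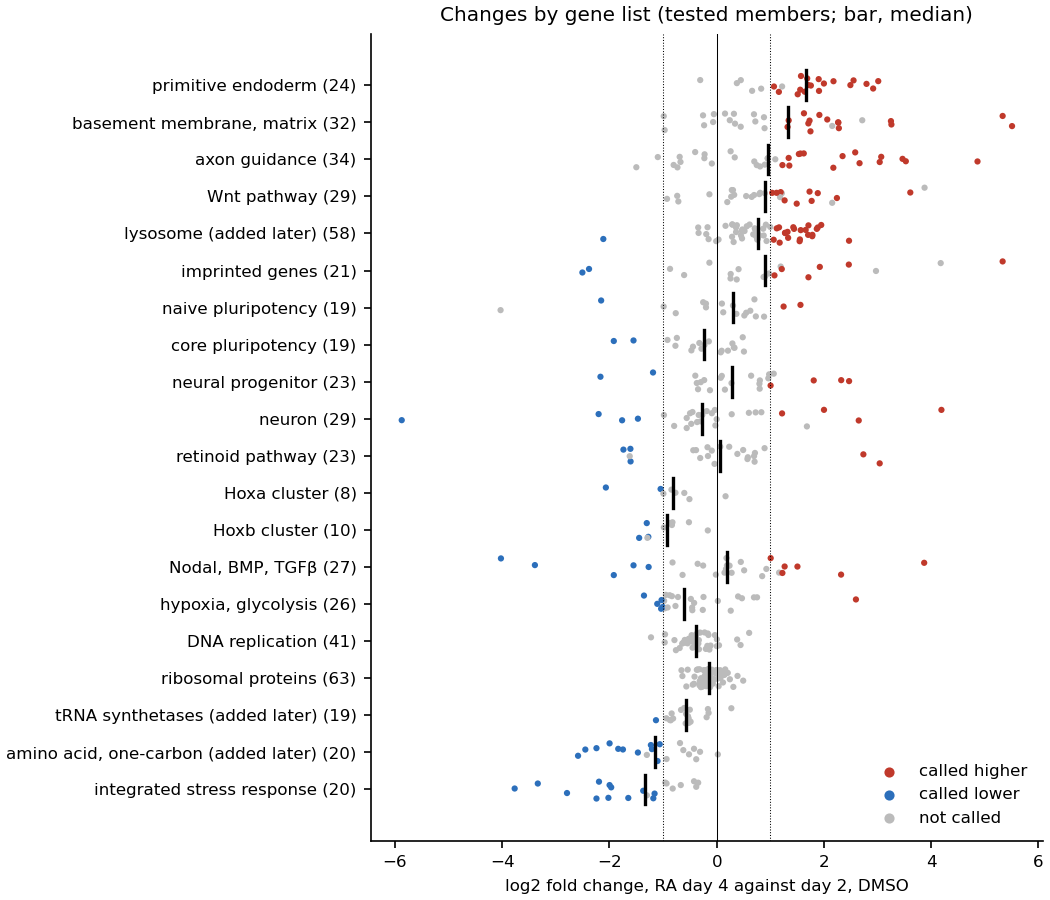
Log2 fold change from RA day 2 to day 4 (horizontal) of each tested member of 20 gene lists (rows, number tested in brackets), with red and blue points for members called higher and lower, grey for members not called, and a black bar for the median. The primitive endoderm row centres on 1.66 and the integrated stress response row on −1.34, while the 63 ribosomal protein genes lie near 0 with none called.

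Lysosomal genes were a further group among those that rose. The list of 61 was written after the values had been seen, so its count is only a description. Of 58 tested members, 22 (37.9%, against 7.79% of all tested genes) were called higher and 1, Idua, lower, and 51 had a log2 fold change above 0. The call of Idua was lost without DMSO day 2 replicate 1 (adjusted p = 0.0848) or DMSO day 4 replicate 1 (adjusted p = 0.137). The list summed to 5901.7 and 5928.3 CPM on day 2 and to 10229.3 and 10265.3 CPM on day 4. Ctsl, for the protease cathepsin L, read 929.6 and 818 CPM and then 1873 and 1776 CPM, with 30.9% of its reads multimapped. Its log2 fold change of 1.06 was 0.97 without DMSO day 2 replicate 2. Cd63, a membrane protein of late endosomes, went from 116 and 142 CPM to 469 and 473 CPM, and Grn, for progranulin, from 108 and 125 CPM to 307 and 326 CPM. Hexa and Ctsa, for a hexosaminidase subunit and cathepsin A, rose from 28.6 and 29.8 CPM to 103 and 88.0 CPM and from 21.3 and 34.2 CPM to 103 and 88.5 CPM. Cst3, for the cathepsin inhibitor cystatin C, rose from 294 and 283 CPM to 852 and 862 CPM. Lamp1, an abundant lysosomal membrane protein gene, had a log2 fold change of 0.93 ± 0.10 and was not called.

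Of 34 tested genes of axon guidance, 15 (44.1%) were called higher and none lower (median 0.95), against 7.79% and 4.70% of all tested genes. Epha4, an ephrin receptor, read 111 and 107 CPM on day 2 and 307 and 324 CPM on day 4, and the ligand Efnb2 rose by a log2 fold change of 2.18 ± 0.29. Sema6a, a transmembrane semaphorin, was at 11.4 and 4.33 CPM and then at 66.4 and 62.2 CPM. Of 29 tested Wnt pathway genes, 10 (34.5%) were called higher, against the same 7.79%, and none lower (median 0.90). They included Tcf7l2, a nuclear effector of the pathway, at 51.9 and 37.5 CPM and then 151 and 154 CPM, and Dkk1, a secreted inhibitor, at 20.3 and 17.3 CPM and then 71.2 and 53.5 CPM.

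The largest log2 fold change among genes of at least 50 CPM on the higher day belonged to Tgfb2, a ligand of the TGFβ family. It read 10.4 and 13.5 CPM on day 2 and 169 and 183 CPM on day 4, a log2 fold change of 3.87 ± 0.27 (SE, adjusted p = 2.30e-11). Of the 12 genes with the largest rises, only Tgfb2, at 44.2 CPM, and the endothelin receptor gene Ednrb stood lower on day 6 than on day 4. Ednrb read 55.9 and 57.6 CPM on day 4 and 29.7 CPM on day 6. Pth1r, the parathyroid hormone receptor, was at 1.56 and 11.1 CPM and then at 81.6 and 76.7 CPM, so its day 2 libraries differed widely at these few reads. Timp3, an inhibitor of matrix proteases, Htra1, a secreted serine protease, Fabp3, a fatty acid carrier, and Lgals9, a galectin, filled the same group with log2 fold changes of 3.16, 3.13, 2.94 and 2.77. Bmp2 rose from 8.31 and 11.5 CPM to 51.1 and 49.0 CPM, and Sox9 from 24.9 and 25.5 CPM to 129 and 151 CPM. Gata3, a trophectoderm factor also used in other epithelia, rose from 31.2 and 29.3 CPM to 116 and 120.2 CPM.

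Of 21 tested imprinted genes, 6 (28.6%) were called higher and 2 (9.52%) lower, against 7.79% and 4.70% of all tested genes. Peg3, expressed from the paternal allele, rose from 138 and 139 CPM to 789 and 735 CPM (log2 fold change 2.46 ± 0.10, adjusted p = 7.83e-16). The growth factor gene Igf2 rose from 47.3 and 49.5 CPM to 183 and 184 CPM, and Igf2r, for the receptor that clears it and sorts lysosomal enzymes, from 40.5 and 39.0 CPM to 144 and 116 CPM. Cdkn1c and Phlda2, maternally expressed genes close together on chromosome 7 (GRCm38, 143458339 to 143461050 and 143501545 to 143503150), fell. Cdkn1c, for the cell cycle inhibitor p57, read 1163 and 1271 CPM on day 2 and 207 and 222 CPM on day 4, a log2 fold change of −2.50 ± 0.11. It had been at 166 and 187 CPM at 0 h and at 1469 and 1674 CPM on day 1, so that day 4 was close to its starting level. Phlda2 started from 139 and 121 CPM and fell by 2.38 ± 0.17 on the log2 scale.

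The clearest group among the genes that fell was the integrated stress response. Of 20 tested members, 12 (60.0%) were called lower, against 4.70% of all tested genes, and none higher, all 20 had a log2 fold change below 0, and the median was −1.34. Atf4, for the factor at the centre of the response, read 1479.6 and 1631 CPM on day 2 and 723 and 669.7 CPM on day 4, a log2 fold change of −1.16 ± 0.12 (SE, adjusted p = 4.95e-08). The list was at 3926.7 and 3668.6 CPM in sum at 0 h, at 7043.7 and 7613.7 CPM on day 2 and at 2995.5 and 3011.3 CPM on day 4.

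ATF4 binds with C/EBP partners at a composite element whose core can be written TGATGNAA, where N is any base. It was searched on both strands, alone, in the 250 bases before each gene's start site in the RefSeq promoter table (GRCm38.p6), which held 12 of the 12 stress genes called lower. The core was found in 3 of these 12, in 5 of 18 tested stress genes with a promoter (27.8%), Asns and Slc7a11 being the others, in 29 of 394 genes called lower with a promoter (7.36%), in 21 of 692 called higher (3.03%), in 214 of 9045 tested genes (2.37%) and in 3.91% of all 27025 genes of the table. The matches are given here with 50 bases on each side, because they show which stress genes of the falling group hold the core near their start. They run 5′ to 3′ on the gene's strand with the match in capitals, and all 3 are in the reverse orientation.
Chac1, chr2:119350999-119351106, plus strand: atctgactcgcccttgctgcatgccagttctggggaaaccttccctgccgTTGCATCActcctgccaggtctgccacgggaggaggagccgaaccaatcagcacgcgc
Nupr1, chr7:126625523-126625630, minus strand: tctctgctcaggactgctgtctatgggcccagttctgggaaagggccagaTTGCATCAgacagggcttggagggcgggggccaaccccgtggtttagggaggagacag
Vldlr, chr19:27216770-27216877, plus strand: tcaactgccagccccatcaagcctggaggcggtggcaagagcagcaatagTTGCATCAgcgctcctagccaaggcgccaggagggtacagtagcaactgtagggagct
The matches begin 193, 110 and 200 bases before the start sites of Chac1, Nupr1 and Vldlr. A match is a string of letters and not a measured binding site, and the other 9 genes have no such string in this window.

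The 3 genes with these sequences fell by different amounts. Chac1, which degrades glutathione, read 341 and 352 CPM on day 2 and 38.0 and 30.4 CPM on day 4, a log2 fold change of −3.34 ± 0.14 (SE, adjusted p = 7.83e-16). Nupr1, a small stress-induced chromatin protein gene, read 136 and 139 CPM and then 13.5 and 6.35 CPM (−3.77 ± 0.24). Vldlr, a lipoprotein receptor gene, read 72.7 and 66.9 CPM and then 24.9 and 29.0 CPM (−1.37 ± 0.18). Each had been lower at 0 h than on day 2, and Chac1 and Vldlr by more than 10-fold, at 12.6 and 15.3 CPM and at 1.94 and 2.12 CPM. Trib3, a pseudokinase that restrains the response, fell from 198 and 200.1 CPM to 25.8 and 31.8 CPM, and the factors Ddit3 and Atf5 from 71.7 and 75.5 CPM to 14.8 and 17.2 CPM and from 213 and 244 CPM to 53.7 and 59.0 CPM. Ddit4, an inhibitor of mTORC1, fell from 597 and 628 CPM to 161 and 152 CPM. Asns, for asparagine synthetase, was a member that changed little, from 416 and 465 CPM to 347 and 329 CPM (−0.38 ± 0.10), and was not called.

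Enzymes and carriers of amino acid and one-carbon metabolism went down with them. A list of 23 such genes, written after the values had been seen and sharing 6 members with the stress list, had 11 of 20 tested (55.0%, against 4.70% of all tested genes) called lower and none higher, with a median of −1.16. Mthfd2, a mitochondrial folate enzyme, read 777 and 802 CPM on day 2 and 206 and 189 CPM on day 4, 3.99-fold lower (adjusted p = 2.93e-14 in edgeR). Psph, of serine synthesis, fell from 185 and 195 CPM to 35.4 and 44.9 CPM, and Cth, which makes cysteine, from 271 and 218 CPM to 48.0 and 41.3 CPM. Slc3a2, the heavy chain of amino acid exchangers, fell from 908 and 997 CPM to 289 and 319 CPM. Of 19 tested cytosolic aminoacyl-tRNA synthetases, also listed after the fact, 18 had a log2 fold change below 0 with a median of −0.57, but only Yars (−1.13 ± 0.11) was called. The day 4 levels of Mthfd2, Psph and Cth lay below their 0 h levels as well.

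The list of Nodal, BMP and TGFβ genes was split, with 6 of 27 tested (22.2%) called higher and 5 (18.5%) lower, against 7.79% and 4.70% of all tested genes (median 0.19). Lefty1 and Lefty2, secreted inhibitors that Nodal induces, lie close together on chromosome 1 (GRCm38, 180935022 to 180938400 and 180893108 to 180899103). Lefty2 had the largest fall of the genes with at least 50 CPM on the higher day, from 335 and 376 CPM to 21.4 and 22.2 CPM (log2 fold change −4.02 ± 0.18, adjusted p = 3.54e-15), with 22.9% of its reads multimapped. Lefty1 fell from 106 and 100.0 CPM to 11.3 and 8.17 CPM. The coreceptor Tdgf1 went from 42.6 and 45.2 CPM to 11.8 and 11.3 CPM, and Gdf3, a related ligand, from 18.2 and 17.3 CPM to 5.67 and 6.35 CPM. Nodal itself read 83.6 and 71.7 CPM and then 49.3 and 50.4 CPM (−0.64 ± 0.15), which is below the cutoff. Lefty2 peaked on day 2 among the DMSO times, while Tdgf1 had already fallen from 688 and 704 CPM at 0 h.

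**Figure D3:**
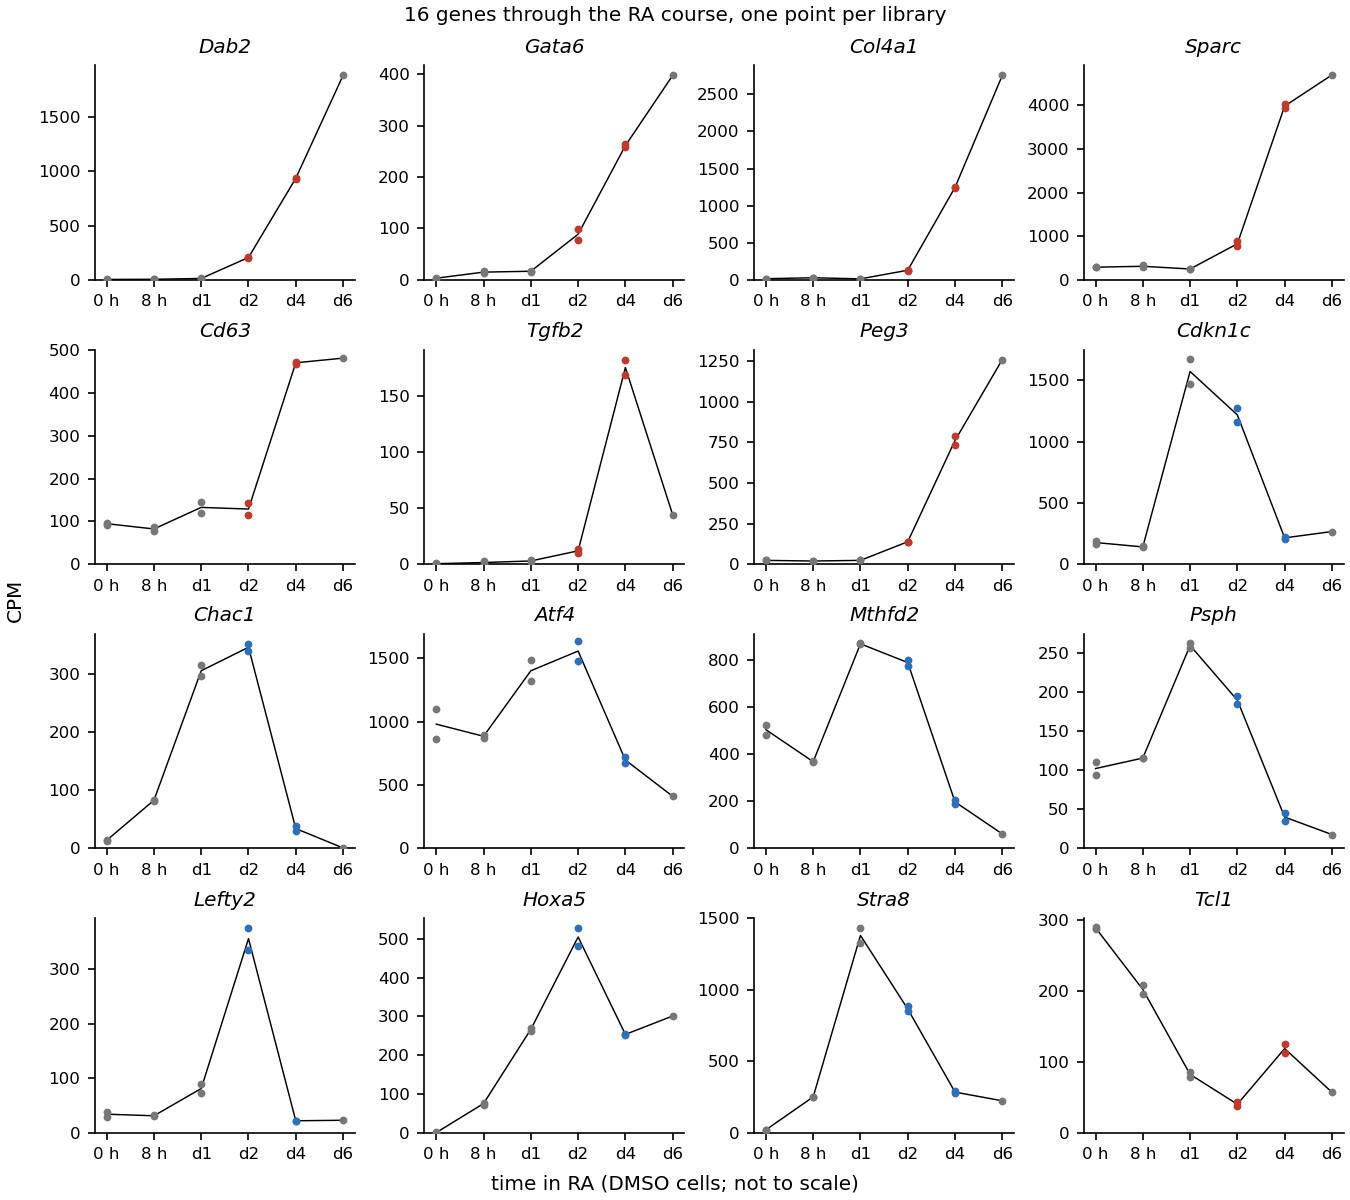
CPM (vertical, linear from 0) of 16 genes at 0 h, 8 h and days 1, 2, 4 and 6 of RA in DMSO cells, with a point per library and a line through the means. Colored points are the day 2 and day 4 libraries, red where the log2 fold change is positive and blue where it is negative. Dab2, Col4a1 and Peg3 climb through day 6, and Chac1, Lefty2 and Stra8 pass a peak on day 1 or day 2. Day 6 is 1 sample.

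The Hoxa and Hoxb genes, which stood below 6 CPM at 0 h, mostly had lower means on day 4 than on day 2. In the Hoxa cluster, 7 of 8 tested genes had a lower mean on day 4 and 2 were called lower, and in the Hoxb cluster all 10 had a lower mean and 3 were called. Among all tested genes 4.70% were called lower. The medians of the clusters were −0.81 and −0.93. Of 8 tested Hoxc and Hoxd genes, 3 had a higher and 5 a lower mean, with a median of −0.20, and 1 was called lower, Hoxc5, at 28.6 and 21.6 CPM and then 10.5 and 11.3 CPM. Its call was lost without DMSO day 2 replicate 1 (adjusted p = 0.0889) or DMSO day 4 replicate 1 (adjusted p = 0.0638). Hoxa5, the most abundant in these libraries, read 482 and 528 CPM on day 2 and 256 and 251 CPM on day 4, and its log2 fold change of −0.99 ± 0.12 (adjusted p = 3.82e-07) was just short of the cutoff. Hoxa9 fell from 32.2 and 29.8 CPM to 6.55 and 8.17 CPM (−2.07 ± 0.34), Hoxb5 from 48.8 and 62.0 CPM to 23.6 and 22.2 CPM (−1.27 ± 0.22) and Hoxb7 from 23.4 and 36.1 CPM to 9.60 and 12.3 CPM (−1.45 ± 0.33). Hoxa4 and Hoxb8 were also called, at log2 fold changes of −1.05 and −1.30. Hoxa4 lost the call without DMSO day 4 replicate 1 (−0.92), and Hoxb8 without DMSO day 2 replicate 2 (adjusted p = 0.253), DMSO day 4 replicate 1 (adjusted p = 0.146) or DMSO day 4 replicate 2 (adjusted p = 0.069). Hoxb1, a gene of the hindbrain end of the cluster, went from 213 and 209 CPM to 116 and 115 CPM (−0.87 ± 0.12). Hoxa3, at 61.8 and 53.9 CPM and then 62.4 and 67.1 CPM, differed by about its error (0.16 ± 0.16). Cdx1, a caudal factor that acts upstream of posterior Hox genes, fell from 47.8 and 51.5 CPM to 3.93 and 4.08 CPM. The Hox partner Meis2 had a log2 fold change of 0.69 ± 0.12 and was not called.

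**Figure D4:**
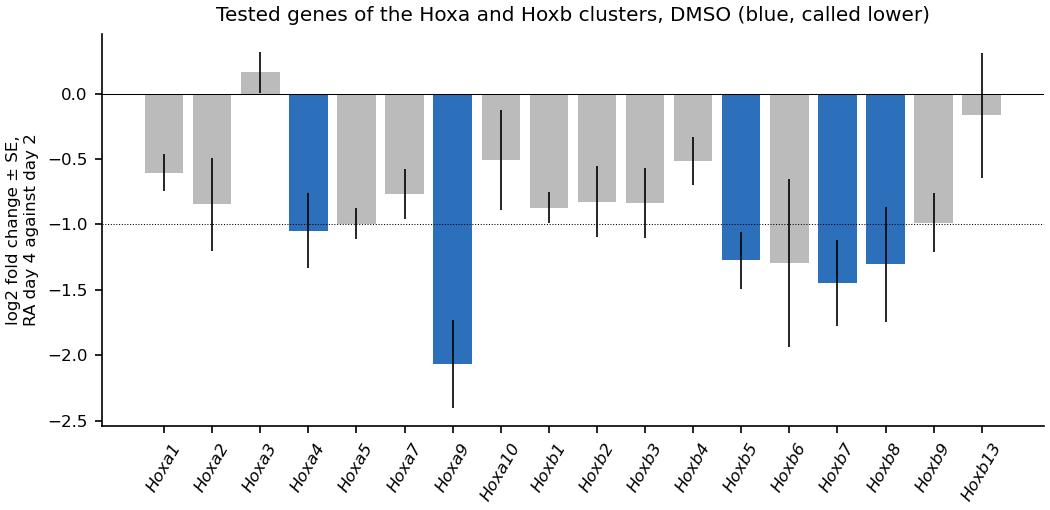
Log2 fold change from RA day 2 to day 4 (vertical, bars from 0, with SE) of the 8 tested Hoxa and 10 tested Hoxb genes, in order of their number, in DMSO cells. Blue bars are the 5 genes called lower, the dotted line marks −1, and of these 18 genes only Hoxa3 lies above 0.

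Of 23 tested genes of the RA pathway, 2 (8.7%) were called higher and 3 (13.0%) lower, against 7.79% and 4.70% of all tested genes. The share called higher was near that of all genes, and the share called lower was above it but rests on 3 genes. Stra8, an RA-induced gene of premeiotic germ cells, had peaked at 1429.5 and 1327 CPM on day 1, and it fell from 847 and 882 CPM on day 2 to 279 and 288 CPM on day 4 (−1.61 ± 0.10, adjusted p = 8.29e-12). Aldh1a3, an enzyme that makes RA, was called lower too, but 99.0% of its reads were multimapped. Aldh1a1, of the same family, rose from 1.04 and 0.96 CPM to 7.86 and 9.53 CPM, and Aldh1a2 from 0 and 1.44 CPM to 3.93 and 6.81 CPM, near the 1.56 CPM that 3 reads are worth in the shallowest library. The call of Aldh1a2 was lost without DMSO day 2 replicate 1 (adjusted p = 0.106). The enzymes that degrade RA and the receptor gene Rarb had higher means on day 4 but were not called. Cyp26a1 read 90.9 and 106 CPM and then 128 and 103 CPM (0.23 ± 0.21), Cyp26b1 131 and 141 CPM and then 201 and 244 CPM (0.71 ± 0.17), and Rarb 31.2 and 23.1 CPM and then 54.1 and 46.3 CPM (0.89 ± 0.23).

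Few pluripotency genes were called. Of 19 tested naive genes, 2 (10.5%) were called higher and 1 (5.26%) lower (median 0.30), against 7.79% and 4.70% of all tested genes. Of 19 tested core genes, 2 (10.5%) were called lower and none higher (median −0.23), against the same shares. At an adjusted p below 0.05 with no cutoff on the fold, 8 naive genes were higher and 2 lower, and 3 core genes were higher and 7 lower. By that rule, 17.6% of all tested genes were higher and 14.8% lower. Nanog read 332 and 299 CPM and then 267 and 263 CPM (−0.25 ± 0.15), against 713 and 732 CPM at 0 h. Esrrb, another naive factor, read 108 and 105 CPM and then 166 and 162 CPM (0.63 ± 0.12), against 702 and 726 CPM at 0 h. Tcl1, a coactivator of the kinase AKT, turned around. It had dropped from 290.3 and 288 CPM at 0 h to 37.4 and 42.8 CPM on day 2, and it rose to 124 and 113 CPM on day 4 (1.56 ± 0.13, adjusted p = 1.58e-09). Nr0b1 had a log2 fold change of 1.25 ± 0.48, and its call was lost without DMSO day 2 replicate 2 (adjusted p = 0.316) or DMSO day 4 replicate 1 (adjusted p = 0.343).

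Of 29 tested neuronal genes, 4 were called higher and 4 lower (median −0.27), against 7.79% and 4.70% of all tested genes. Without a cutoff on the fold, 4 were higher and 8 lower at an adjusted p below 0.05. The 11 neuron markers summed to 348 and 337 CPM on day 2 and to 240.0 and 248 CPM on day 4. Stmn2, a microtubule regulator of growing axons, fell from 79.5 and 85.6 CPM to 33.6 and 25.9 CPM, and Onecut2, a factor of motor neurons and liver, rose from 20.8 and 26.5 CPM to 95.2 and 94.8 CPM. Isl1, of motor neurons and several mesodermal and endodermal tissues, rose from 3.64 and 5.29 CPM to 26.6 and 30.4 CPM.

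None of 41 tested DNA replication genes, 36 mitotic genes or 63 ribosomal protein genes was called, and their medians were −0.38, −0.16 and −0.14. At an adjusted p below 0.05 with no cutoff on the fold, 19 replication genes were lower and none higher, with 10 lower and 4 higher among the mitotic genes and 13 lower and 3 higher among the ribosomal protein genes, against 14.8% lower and 17.6% higher among all tested genes. Of 48 tested ribosome biogenesis genes, 3 were called lower and none higher (median −0.36), and 22 were lower and 1 higher by the rule with no cutoff. Of 14 tested cyclin and CDK genes, 2 were called lower and none higher (median −0.44), and 6 were lower and 1 higher by that rule. Ccne1, for cyclin E1, was 1 of the 2, at 271 and 248 CPM and then 96.0 and 103 CPM (−1.38 ± 0.12). Of 26 tested genes of hypoxia and glycolysis, 5 (19.2%) were called lower and 1 (3.85%) higher, against 4.70% and 7.79% of all tested genes (median −0.60). Ldha, for lactate dehydrogenase, fell from 710.4 and 756 CPM to 269 and 304 CPM, with 45.9% of its reads multimapped. Among the COMPASS and KDM5 genes, 1 of 21 tested was called, against 7.79% called higher among all tested genes, and 9 were higher and 1 lower by the rule with no cutoff. The gene called was the methyltransferase Setd1b, at 51.4 and 49.5 CPM and then 133 and 143 CPM (1.45 ± 0.15).

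The genes were next sorted by their change from 0 h to day 1, a comparison that shares no library with that of day 2 to day 4. In that first day, 16.0% of tested genes were called higher and 13.4% lower. Of the 537 genes that fell from day 2 to day 4, 239 (44.5%) had been called higher on day 1, which is 13.1% of the 1825 genes higher on day 1, and 27 (5.03%) had been called lower. Chac1, Cdkn1c, Stra8, Lefty1 and the 5 Hoxa and Hoxb genes called lower were among the former. Of the 889 genes that rose, 158 (17.8%) had been called higher on day 1, 199 (22.4%) lower and 532 (59.8%) neither. On day 4, 414 of the 537 falling genes had a mean below that at 0 h, and 121 a mean above it. On day 6, in 1 sample, 600 of the 889 rising genes stood above their day 4 mean and 862 above their day 2 mean, and of the 537 falling genes 328 stood below day 4 and 524 below day 2. The counts for days 4 and 6 use the day 2 or day 4 values that chose these genes, so they are a description only.

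The same interval was measured in cells given auxin, in which the tagged DPY30 protein is the target of degradation, and the difference between the 2 changes was tested as an interaction. It was called for 86 genes (0.753% of those tested), 41 with a higher and 45 with a lower log2 fold change in auxin. With library totals in place of TMM factors the split was 60 and 33. The counts were 19 and 20 under DESeq2, 91 and 64 in a fit of only the 8 libraries compared, and with 1 library left out as low as 21 higher (without DMSO day 4 replicate 2) and 25 lower (without DMSO day 2 replicate 1). In auxin alone, 684 genes (5.99%) were called higher on day 4 and 326 (2.86%) lower, and 355 of the 889 genes that rose and 166 of the 537 that fell in DMSO were called in the same direction. These are 39.9% and 51.9% of the rising genes of DMSO and of auxin, and 30.9% and 50.9% of the falling ones. By sign alone, 853 of the 889 and 508 of the 537 moved the same way. The agreement in sign over all tested genes was not counted, so these are a description only.

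Of the 889 rising genes, 27 were called in the interaction, all with a lower change in auxin. The genes were sorted by their DMSO change, which the interaction subtracts, so this sorting favours a lower change in auxin among rising genes and a higher one among falling genes, and the directions are given as a description only. Matrix genes were among them. Col4a1 went from 123 and 134 CPM to 368 and 329 CPM in auxin, and Sparc from 612 and 560.2 CPM to 898 and 924 CPM. So were lysosomal genes. Hexa read 20.9 and 30.5 CPM and then 16.5 and 15.3 CPM in auxin (difference of log2 fold changes −2.39 ± 0.35 SE, adjusted p = 1.62e-04), and Ctsa 17.3 and 12.1 CPM and then 14.4 and 9.69 CPM (−2.08 ± 0.43, adjusted p = 0.00998). The endoderm factors Gata6 (−0.77 ± 0.24, adjusted p = 0.129) and Foxa2 (−0.77 ± 0.28, adjusted p = 0.209) were not called, nor was Dab2 (−0.49 ± 0.17, adjusted p = 0.175). Of the 537 falling genes, 21 were called, 19 with a higher and 2 with a lower change in auxin. The 2 were Atf4, at 1523 and 1318 CPM and then 261 and 358 CPM in auxin (−1.04 ± 0.18, adjusted p = 0.0011), and Chac1, at 179 and 175 CPM and then 2.66 and 4.59 CPM (−2.24 ± 0.32, adjusted p = 1.15e-04). Hoxb1, at 271 and 273 CPM and then 321 and 338 CPM in auxin (1.15 ± 0.16, adjusted p = 8.56e-05), and Cyp26b1, at 91.1 and 87.3 CPM and then 465 and 435 CPM (1.63 ± 0.25, adjusted p = 3.00e-04), were not called in DMSO and had a higher change in auxin.

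**Figure D5:**
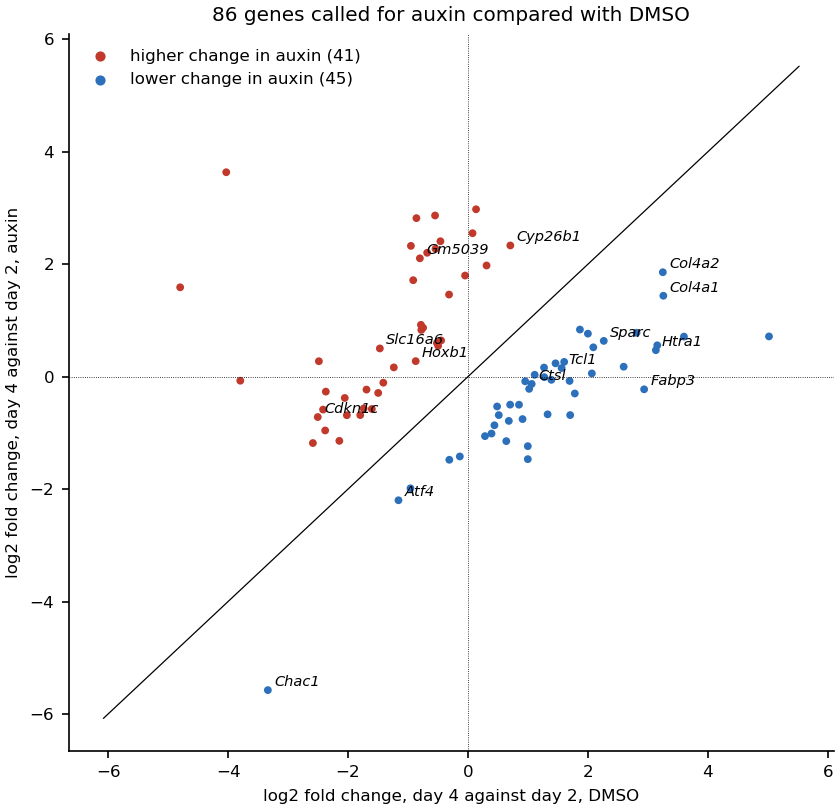
Log2 fold change from RA day 2 to day 4 in DMSO (horizontal) and in auxin (vertical) of the 86 genes called for the difference, with equal change on the diagonal. Red points are the 41 genes with a higher change in auxin and blue points the 45 with a lower one, among them Col4a1, Fabp3 and Chac1.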

How the data were processed

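Quant-seq libraries were made from total RNA with a 3′-end kit. The authors deposited raw counts per 3′ UTR interval of protein-coding genes. The methods of the study state that HISAT2 2.2.1 aligned trimmed reads to mm10 and featureCounts counted them over 3′ UTRs, while the file headers name slamdunk 0.3.4 and GENCODE vM14. The part of slamdunk in these Quant-seq files is not given in the sources used here. Genes of the lists with no interval were not analysed here.

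The deposited counts of 46420 intervals were summed per gene, multimapped reads included. The 21 distinct libraries of 11 RA groups were fitted together in edgeR 4.0.16 (R 4.3.3) with TMM factors and Benjamini-Hochberg adjustment, the day 6 DMSO pair holding the same values and entering as 1 sample. The spread was thus shared over the groups, with a common biological coefficient of variation of 0.0884. A fold is that of the fit. Depth limits the precision, and 3 reads are worth 1.31 to 1.56 CPM in the 4 libraries. Coordinates are from GENCODE vM21, also on GRCm38. The other 36 libraries, of labelled RNA, were not used here.

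The members and the gene lists were chosen with earlier results of these data known. Named genes were the 12 largest and 12 smallest log2 fold changes among called genes with at least 50 CPM on the higher day and libraries that do not overlap, the 6 called genes a direction with the largest differences in CPM, up to 4 called a direction and 3 not called per list, every pluripotency, Hoxa, Hoxb, RA pathway and cell type marker gene, and 5 a direction for the interaction. The text gives a selection of these, and some genes that the rule names are not reported here. A further 3 lists, of lysosomal, tRNA synthetase and amino acid genes, were written after the values had been seen, and Hexa, Ctsa and Cd63 were named for them. Alternatives were RLE factors, library totals, DESeq2 1.42.0, other filters, smaller fits, a replicate block, unadjusted p and leaving out each library. Figures used Python 3.11.15 and matplotlib 3.10.9.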

Additional observations from a re-analysis of the deposited data

Results flagged for a closer look

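For 9 genes the change from RA day 2 to day 4 differed between auxin and DMSO cells in the interaction test of edgeR, and they have the smallest p-values a direction past the cutoffs among the genes reported here. Values are differences of log2 fold changes, auxin minus DMSO, with SE and adjusted p, over 2 libraries a group. Lower changes in auxin were found for Col4a1 (−1.82 ± 0.17, adjusted p = 1.58e-07), Sparc (−1.63 ± 0.15, adjusted p = 1.58e-07), Fabp3 (−3.16 ± 0.33, adjusted p = 1.01e-06), Htra1 (−2.66 ± 0.34, adjusted p = 2.25e-05) and Tcl1 (−1.41 ± 0.19, adjusted p = 4.61e-05). Fabp3 rose from 29.6 and 36.6 CPM to 241 and 269 CPM in DMSO and read 15.2 and 11.5 CPM and then 13.8 and 9.18 CPM in auxin.

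Higher changes in auxin were found for Cdkn1c (1.79 ± 0.15, adjusted p = 7.56e-08), Slc16a6 (1.97 ± 0.23, adjusted p = 5.88e-06), Gm21761 (2.88 ± 0.27, adjusted p = 1.58e-07) and Gm5039 (2.91 ± 0.32, adjusted p = 2.95e-06). Cdkn1c stood at 577 and 570.0 CPM on day 2 in auxin, below the 1163 and 1271 CPM of DMSO, and at 375 and 322 CPM on day 4, above the 207 and 222 CPM of DMSO. Gm21761 read 63.4 and 52.9 CPM and then 268 and 269 CPM in auxin, and 48.3 and 48.1 CPM and then 27.9 and 32.2 CPM in DMSO, with 32.7% of its reads multimapped. The multimapped share of Gm5039 was 53.7%.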

How the results depend on the processing

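The 889 genes higher and 537 lower on day 4 stayed within 1.5 times under RLE factors, library totals, both other filters, unadjusted p, the smaller fits and without multimapped genes, and under DESeq2 the genes higher were 554 and the genes lower 425. Leaving out each of the 4 libraries gave 723 to 822 genes higher and 450 to 531 lower. The interaction counts of 41 and 45 were less stable: 19 and 20 under DESeq2, 70 and 72 with no filter beyond 1 read, 286 and 245 at an unadjusted p, and 91 higher in the fit of the 8 libraries compared. Leaving out 1 of those 8 libraries gave 21 to 31 genes higher and 25 to 42 lower, and any single library but auxin day 4 replicate 2 and DMSO day 4 replicate 1 took the genes higher down by over 1.5 times. The genes lower went down by as much without replicate 1 of any of the 4 groups. The replicate number did not pair the libraries, since the deviations of the 2 days correlated at 0.0927 and 2 of 45 group pairs passed 0.1, and with it as a replicate block 882 genes were higher and 541 lower. No gene named in the text changed sign under any alternative run. The cause of these shifts was not tested. The depth leaves genes under a few CPM poorly measured, and 2 libraries a day of 1 cell line are the whole basis of each value.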

Other observations

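Some genes had no read in either day 2 library and were called higher on day 4. With 3 reads in the shallower day 2 library as the floor, which covers counting error only, Rgs5, a regulator of G protein signalling in pericytes, was at least 6.03-fold higher on day 4 (16 and 26 reads). Prlr, the prolactin receptor, was at least 4.42-fold higher (17 and 14 reads), and Sema3d, a secreted semaphorin, at least 3.56-fold higher (15 and 10 reads). There were 12 such genes, and they were singled out after their values had been seen.

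Genes of later gut and definitive endoderm overlapped with the primitive endoderm list in Sox17 and Foxa2, and of their 10 tested members 7 (70.0%) were called higher and 1 (10.0%) lower, against 7.79% and 4.70% of all tested genes, with a median log2 fold change of 1.72. Of 11 tested genes of the MYC network, 2 were called higher and none lower, against 7.79% and 4.70% of all tested genes (median 0.36).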
